A study of Gallus gallus with 6 samples.

Results

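This account describes 18 genes for ion and solute transporters, channels and other ATPases in the magnum, the segment of the hen oviduct that secretes egg white. They were chosen by the authors' own test: the 18 come from the deposited table of 540 genes, out of 19152 counted, whose fold change and q-value passed the authors' thresholds in these same libraries. Of the 18, 16 were taken by their name (solute carrier, ion-transporting ATPase, potassium or calcium channel) and 2, CNGA4 and ATAD5, by their description alone. ATAD5 is an ATPase that removes the PCNA clamp from replicated DNA and transports no ion, so the rule gathers 17 transporters and channels and 1 gene of DNA replication. A set of 5 amino acid transporters of the same table was left out by the rule, as were names beginning KIF, MCM or DNAH.

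Libraries of mRNA were made from the magnum of 3 laying and 3 non-laying Hy-line hens (Hy-Line white in the study's methods), 1 library per hen, and triplets of values below follow the order of hens 1, 2 and 3. The laying hens were 35 weeks old and had an egg in the magnum, 3 h post-ovulation, and the tissue was taken just ahead of it. The non-laying hens came from several flocks, were between 35 and 60 weeks old, and had an atrophied oviduct with no growing follicles. Age and flock cannot be told apart from laying status.

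The magnum takes up amino acids, ions and fuel from the blood and releases protein and fluid into the lumen around the yolk. Solute carriers move small molecules across the plasma, vesicle and mitochondrial membranes, ion-pumping ATPases build gradients at the cost of ATP, and channels let ions pass down those gradients. In secretory epithelia, exchange of chloride for bicarbonate and of sodium for protons sets the pH and ion content of the fluid, and calcium stored in the endoplasmic reticulum drives the release of granules.

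Summed counts ranged from 18840042 to 25763732 per hen. A single gene without a name in the tables used here, ENSGALG00000012869, held 49.4% to 53.6% of each laying library but 36.5%, 19.8% and 1.33% of those of non-laying hens 2, 1 and 3. The trimmed mean of M-values (TMM) scaled the libraries by 0.4449 to 0.6216 in laying hens and by 1.192 to 2.94 in non-laying hens, and values are given as counts per 1000000 counts of the TMM-scaled library (CPM) unless another scale is named. Avidin (AVD) was the 1 of 16 listed gland and epithelium markers that could be paired with an identifier. It had 838 to 2000 CPM in laying and 2.26 to 3.03 CPM in non-laying hens, so it was present in every library. Among non-laying hens AVD was highest in hen 3, where ENSGALG00000012869 was lowest. Of 61 marker genes listed for the cell types of the oviduct, 9 could be paired with an identifier, all of them from the authors' table. None of 7 smooth muscle, 6 endothelial and 6 red blood cell markers could be paired, so these cells were not analysed here. In these bulk libraries, fewer cells of a type and less RNA per cell cannot be told apart.

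All 18 genes had enough counts to be tested, which for several of them rests on the group in which they were high. On the TMM scale laying hens had more of 10 and less of 8. A gene counts as called here where edgeR's quasi-likelihood test put its fold change above 3 with an adjusted p (Benjamini-Hochberg) below 0.05, and this held for 8 of the 10 higher and all 8 lower genes. Over the 12499 genes tested, 1.28% were called higher and 3.7% lower in laying hens, 4.98% in all. The authors chose these genes for their difference in the same 6 libraries, so the counts describe the choice and test nothing. The higher members ran from 3.67-fold (SLCO2A1) to 43.5-fold (SLC51B), with a median log2 fold change of 2.69, and the lower ones from 3.83-fold (ATAD5) to 8.04-fold (CNGA4), with KCNT2 lower still at very few counts and a median of -2.54, against a median of 0.0 over all genes tested. The genes nearest to the threshold of 3-fold were thus SLCO2A1, SLC22A18, ATP2A3 and ATAD5. Genes just outside it carry no name in the tables used here, so their values are not given. The 2 genes not called, SLC10A4 and SLC22A3, each had 1 laying hen far from the other 2, but so had SLC51B, which was called. Leaving out laying hen 1 or 2 ended all calls but that of SLC26A4, and the calls over all genes then fell from 623 to 20 or 16. Without non-laying hen 1, 6 members were called (SLC26A4, SLC25A4, KCNJ16, KCNT2, CNGA4 and SLC9A2) and 285 genes in all. Without laying hen 3, CACNA1D, CNGA4, KCNT2, SLC16A12 and SLC9A2 lost their call and SLC22A3 gained one. That left 12 members, with 546 of 13056 genes called in all. SLC9A2 and SLC37A2 lost theirs without non-laying hen 2, which left 14 members, while 639 of 12956 genes were called in all. These and CACNA1D lost theirs without non-laying hen 3, which left 13 members, with 563 of 12538 genes called in all.

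Among anion carriers, SLC26A4 (ENSGALG00000007998, chromosome 1, 14802883 to 14822828, Galgal 5.0), known as pendrin, exchanges chloride for bicarbonate or iodide. It had 12.8, 10.2 and 9.29 CPM in laying hens 1, 2 and 3 and 1.02, 0.842 and 0.488 CPM in non-laying hens 1, 2 and 3. The groups lay far apart, and the laying hens were within 1.38-fold of each other, the tightest of the 10 higher genes. The means were 10.8 ± 1.83 CPM (SD, n = 3) and 0.784 ± 0.272 CPM (SD, n = 3), and the log2 fold change was 3.79 (standard error 0.38). Its counts were not whole numbers in any library (139.2 to 163.5 in laying hens), as happens where reads are divided between genes, so its level is uncertain by that share.

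Carbonic anhydrase 2 (CA2, ENSGALG00000030781), which forms the bicarbonate that such exchangers carry, was the other gene with an identifier among 27 listed for anion and bicarbonate transport. It had 593, 845 and 213 CPM in laying hens 1, 2 and 3 and 28.3, 105 and 11 CPM in non-laying hens 1, 2 and 3. It too comes from the authors' table, and the lowest laying value exceeded the highest non-laying value.

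Sodium and protons are exchanged by SLC9A2 (ENSGALG00000016791, chromosome 1, 134070940 to 134102538), an exchanger of epithelial membranes. It went the other way from SLC26A4, with 1.17, 1.44 and 1.2 CPM in laying hens 1, 2 and 3 and 2.86, 4.68 and 9.39 CPM in non-laying hens 1, 2 and 3. The laying hens were alike, whereas the non-laying hens spread over 3.28-fold, with hen 3 highest. Its log2 fold change of -2.15 (standard error 0.49) became -1.55 without non-laying hen 3. The ratio of 2 genes in the same hen does not depend on library scaling. Each ratio given here and below sets a gene chosen as higher over one chosen as lower. That the groups differ in it therefore follows from the choice and tests nothing. The counts of SLC26A4 were 11, 7.13 and 7.72 times those of SLC9A2 in the laying group and 0.357, 0.18 and 0.0519 times in the non-laying group.

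Of the nucleotide carriers, SLC25A4 had the highest mean level per kilobase of the 18 in laying hens. SLC17A9 was level with SLC16A5 there. SLC25A4 (ENSGALG00000010614, chromosome 4, 39636713 to 39639533) exchanges ADP for ATP across the inner mitochondrial membrane. It had 384, 257 and 168 CPM in laying hens 1, 2 and 3 and 32.1, 27.4 and 13.5 CPM in non-laying hens 1, 2 and 3. The lowest laying hen was above the highest non-laying hen, and the fitted difference was 3.47 on the log2 scale (standard error 0.44), or 11.1-fold. SLC17A9 (ENSGALG00000028225, chromosome 20, 8633023 to 8647973) loads ATP into secretory vesicles. Its 170, 183 and 116 CPM in the laying group stood above the 34.9, 59.4 and 19.6 CPM of the non-laying group, by 2.04 on the log2 scale (standard error 0.41). On total counts, without scaling, SLC17A9 had 75.6, 114 and 69.3 CPM in laying and 60.0, 70.8 and 57.6 CPM in non-laying hens, so the groups overlapped there.

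The 2 members of the monocarboxylate transporter family went in opposite directions. SLC16A5 (ENSGALG00000007955, chromosome 18, 10736501 to 10743739), whose human form carries drugs such as bumetanide, had 103, 115 and 31.3 CPM in laying hens 1, 2 and 3 and 12.6, 18.1 and 4.97 CPM in non-laying hens 1, 2 and 3. Laying hen 3 was 3.68-fold below laying hen 2, yet still above non-laying hen 2. SLC16A5 was 7.01-fold higher in laying hens (log2 fold change 2.81, standard error 0.59), and its counts were not whole in any library. SLC16A12 (ENSGALG00000006421, chromosome 6, 19364025 to 19372255), a creatine transporter in human, had 2, 8 and 4 counts in the laying group against 82, 64 and 124 counts in the non-laying group. At 2.10, 2.16 and 2.24 CPM the non-laying hens agreed within 1.07-fold, the closest agreement of any member in either group on the TMM scale. The laying hens, at 0.179 to 0.5 CPM, were all below them. Counting error at 64 to 124 counts is wider than 1.07-fold. On total counts non-laying hens 1, 2 and 3 had 3.61, 2.57 and 6.58 CPM, so the agreement depends on the scaling. With log2 fold change -2.72 (standard error 0.5), SLC16A12 was 6.6-fold lower. In the same hen, SLC16A5 had 573, 231 and 117 times the counts of SLC16A12 in the laying group and 6.01, 8.41 and 2.22 times in the non-laying group.

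**Figure D1:**
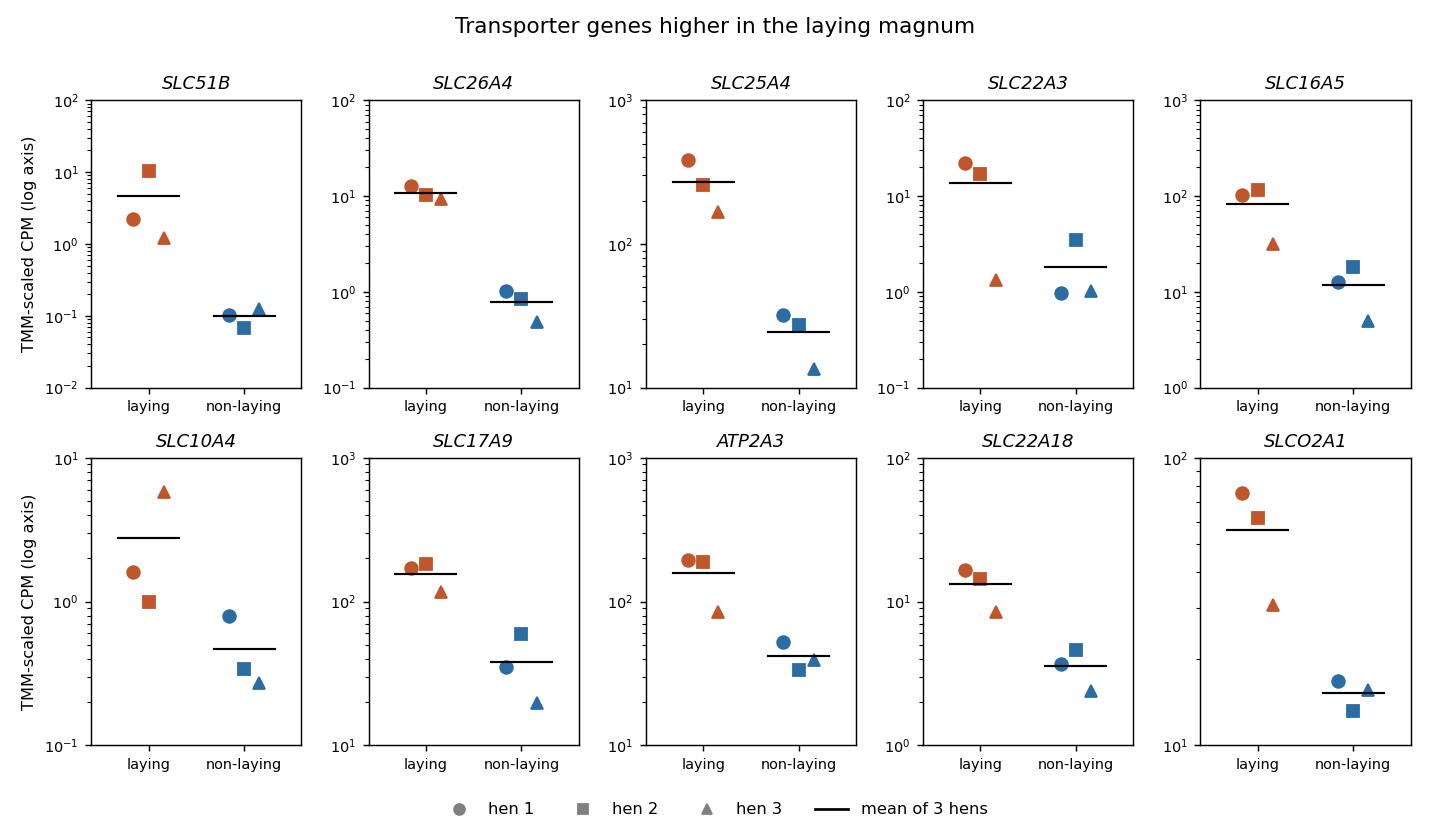
CPM on the TMM-scaled library (log axis) of the 10 genes higher in laying hens, with 1 point per hen, the hen's number as its shape and a line at the mean of 3 hens. The groups overlap for SLC22A3, where laying hen 3 had 1.34 CPM and non-laying hen 2 had 3.50 CPM, and laying hen 3 was the lowest laying hen in 9 of the 10 panels.

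The 2 members that move calcium, of 33 genes listed for calcium transport, went in opposite directions, and the others could not be paired with an identifier. ATP2A3 (ENSGALG00000001564, chromosome 19, 3247312 to 3281243) pumps calcium into the endoplasmic reticulum. It had 196, 190 and 84.9 CPM in laying hens 1, 2 and 3 and 52.2, 33.5 and 39.2 CPM in non-laying hens 1, 2 and 3, with no overlap and a log2 fold change of 1.92 (standard error 0.36). On total counts it had 87.3, 118 and 50.9 CPM in laying and 89.8, 39.9 and 115 CPM in non-laying hens, and the groups overlapped. Its counts were not whole in any library. CACNA1D (ENSGALG00000005332, chromosome 12, 7053449 to 7219032), the pore of an L-type voltage-gated calcium channel of the plasma membrane, had 9, 22 and 14 counts in the laying group against 231, 62 and 627 counts in the non-laying group. These are 0.807, 1.37 and 0.936 CPM against 5.91, 2.09 and 11.3 CPM, so non-laying hen 2 was not far above the laying hens and hen 3 was 5.42-fold above hen 2. For CACNA1D the log2 fold change of -2.62 (standard error 0.62) became -1.92 without non-laying hen 3. Counts of the pump were 243, 138 and 90.7 times those of the channel in the laying group and 8.83, 16.0 and 3.46 times in the non-laying group.

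Of 34 genes listed for carriers of organic ions, bile acids and prostaglandins, 5 could be paired with an identifier. All 5 were among the 10 higher genes, and SLC10A4 and SLC22A3 of them were not called. Only genes of the authors' table could be paired, so the 5 were chosen for their difference. The rest of the list was not analysed here. SLC51B (ENSGALG00000044618, chromosome 10, 17798993 to 17805421) is the beta subunit of the organic solute transporter, which passes bile acids and steroid conjugates out through the basolateral membrane together with its alpha subunit. It had 25, 166 and 18 counts in the laying group against 4, 2 and 7 counts in the non-laying group. Laying hen 2 stood apart, at 10.4 CPM against 2.24 and 1.2 CPM in laying hens 1 and 3, and the non-laying hens had 0.0673 to 0.126 CPM, close to the 0.0542 to 0.101 CPM that 3 counts make in those libraries. SLC51B thus had the highest fold of the 10 (log2 fold change 5.44, standard error 0.92), which was 4.03 on the log2 scale without laying hen 2. The alpha subunit, SLC51A, was not analysed here.

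SLCO2A1 (ENSGALG00000006471, chromosome 9, 4558704 to 4581991) takes prostaglandins into cells for breakdown. It had 75.4, 61.6 and 30.7 CPM in laying hens 1, 2 and 3 and 16.8, 13.2 and 15.6 CPM in non-laying hens 1, 2 and 3. The groups did not overlap on this scale, and the non-laying hens were within 1.27-fold of each other. Its log2 fold change was 1.88 (standard error 0.33). On total counts the laying hens had 33.5, 38.3 and 18.4 CPM and the non-laying hens 28.9, 15.7 and 46.0 CPM, and the log2 fold change was -0.0044, with the highest and the lowest hen both non-laying. SLC22A18 (ENSGALG00000006454, chromosome 5, 13150601 to 13199990), a carrier related to the organic cation transporters, was similar, with 16.6, 14.4 and 8.49 CPM in laying and 3.68, 4.61 and 2.40 CPM in non-laying hens, in the order of hens 1, 2 and 3, and a log2 fold change of 1.88 (standard error 0.36). On total counts its log2 fold change was 0.18.

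SLC22A3 (ENSGALG00000020002, chromosome 3, 45550309 to 45573589), an organic cation transporter that takes up monoamines among other substrates, had 249, 272 and 20 counts in the laying group against 38, 104 and 56 counts in the non-laying group. Laying hen 3, at 1.34 CPM, was 16.7-fold below laying hen 1 and below non-laying hen 2 (3.50 CPM), which makes SLC22A3 the single member whose groups overlapped on the TMM scale. Its log2 fold change of 2.90 (standard error 0.92) was not called, and without laying hen 3 it was, at 3.45. Without non-laying hen 2 it was 3.77. SLC10A4 (ENSGALG00000033908, chromosome 4, 66871126 to 66872520), a relative of the bile acid cotransporters that is found on synaptic vesicles in rodents, had the opposite pattern in the same hens. It had 18, 16 and 86 counts in the laying group against 31, 10 and 15 counts in the non-laying group. Laying hen 3 was the highest at 5.75 CPM, while laying hen 2 had 0.999 CPM against 0.793 CPM in non-laying hen 1. The log2 fold change of 2.58 (standard error 0.76) was not called, and it was 1.48 without laying hen 3 and 3.19 without non-laying hen 1.

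Both potassium channel genes were lower in laying hens. KCNJ16 (ENSGALG00000004373, chromosome 18, 8243078 to 8244367) is a subunit of inward rectifier potassium channels, which in the mammalian kidney pairs with KCNJ10 in salt-transporting epithelium. It had 39, 65 and 71 counts in the laying group against 1124, 598 and 1060 counts in the non-laying group. At 3.50, 4.06 and 4.75 CPM against 28.7, 20.1 and 19.1 CPM the groups lay apart and neither spread over more than about 1.5-fold. KCNJ16 was 5.51-fold lower in laying hens (log2 fold change -2.46, standard error 0.27), with the smallest standard error of the 18. KCNT2 (ENSGALG00000041680, chromosome 8, 2727674 to 2811111), a sodium-activated potassium channel, had 1, 2 and 0 counts in the laying group against 26, 33 and 204 counts in the non-laying group. A count of 0 in laying hen 3 allows up to 3 counts, or 0.2 CPM, and non-laying hen 1 had 0.665 CPM. With 3 counts in all laying hens and 263 in all non-laying hens, the pooled CPM was 29.7 times as high in non-laying hens, with an exact 95% interval of 10.1 to 145 that covers counting error only. Most of these counts came from non-laying hen 3, and without it the fitted log2 fold change was -3.53 in place of -4.6. It was -5.4 without laying hen 2 and -4.0 without laying hen 3.

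CNGA4 (ENSGALG00000022704, chromosome 1, 194460896 to 194463263), which in mammals is a modulatory subunit of the cyclic nucleotide gated channel of olfactory neurons, had 4, 6 and 5 counts in the laying group against 56, 62 and 284 counts in the non-laying group. The laying hens agreed within 1.12-fold (0.334 to 0.375 CPM), but counting error at 4 to 6 counts is wider than that. Non-laying hen 3, at 5.13 CPM, was well above non-laying hens 1 and 2, at 1.43 and 2.09 CPM. The log2 fold change of -3.01 (standard error 0.62) became -2.28 without non-laying hen 3. SLC37A2 (ENSGALG00000035842, chromosome 24, 213692 to 220807), which exchanges sugar phosphates for phosphate across the endoplasmic reticulum membrane, had 12, 10 and 33 counts in the laying group against 191, 124 and 394 counts in the non-laying group. Its highest laying hen, with 2.21 CPM, was below its lowest non-laying hen, with 4.18 CPM. The log2 fold change of -2.05 (standard error 0.5) became -2.68 without laying hen 3.

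The DNA replication gene ATAD5 (ENSGALG00000003294, chromosome 18, 6696138 to 6712562) had 17, 39 and 39 counts in the laying group against 370, 286 and 347 counts in the non-laying group. Its log2 fold change was -1.94 (standard error 0.34). In non-laying hens 1, 2 and 3 it had 9.46, 9.63 and 6.27 CPM, with hens 1 and 2 nearly equal. Each of the 4 paired of 6 listed markers of dividing cells (TOP2A, PLK1, BUB1 and CDK1) had the same order there on the TMM scale. On total counts ATAD5 had 16.3, 11.5 and 18.4 CPM in non-laying hens 1, 2 and 3, so hen 3 was highest. The order of the markers on total counts was not computed. The summed level of these markers was 159, 241 and 54.3 CPM in those hens but 13.7, 9.12 and 11.4 CPM in the laying group. In laying hens 1, 2 and 3 ATAD5 had 1.52, 2.44 and 2.61 CPM, an order that only BUB1 of these markers shared. ATAD5 was lowest in laying hen 1, where the summed markers were highest. Most of that sum was CDK1, at 10.2, 7.06 and 6.35 CPM in laying hens 1, 2 and 3. PLK1 was highest in laying hen 1 as well, whereas TOP2A and BUB1 were highest in laying hen 3, as ATAD5 was. The part of dividing cells in the difference of ATAD5 was not tested.

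**Figure D2:**
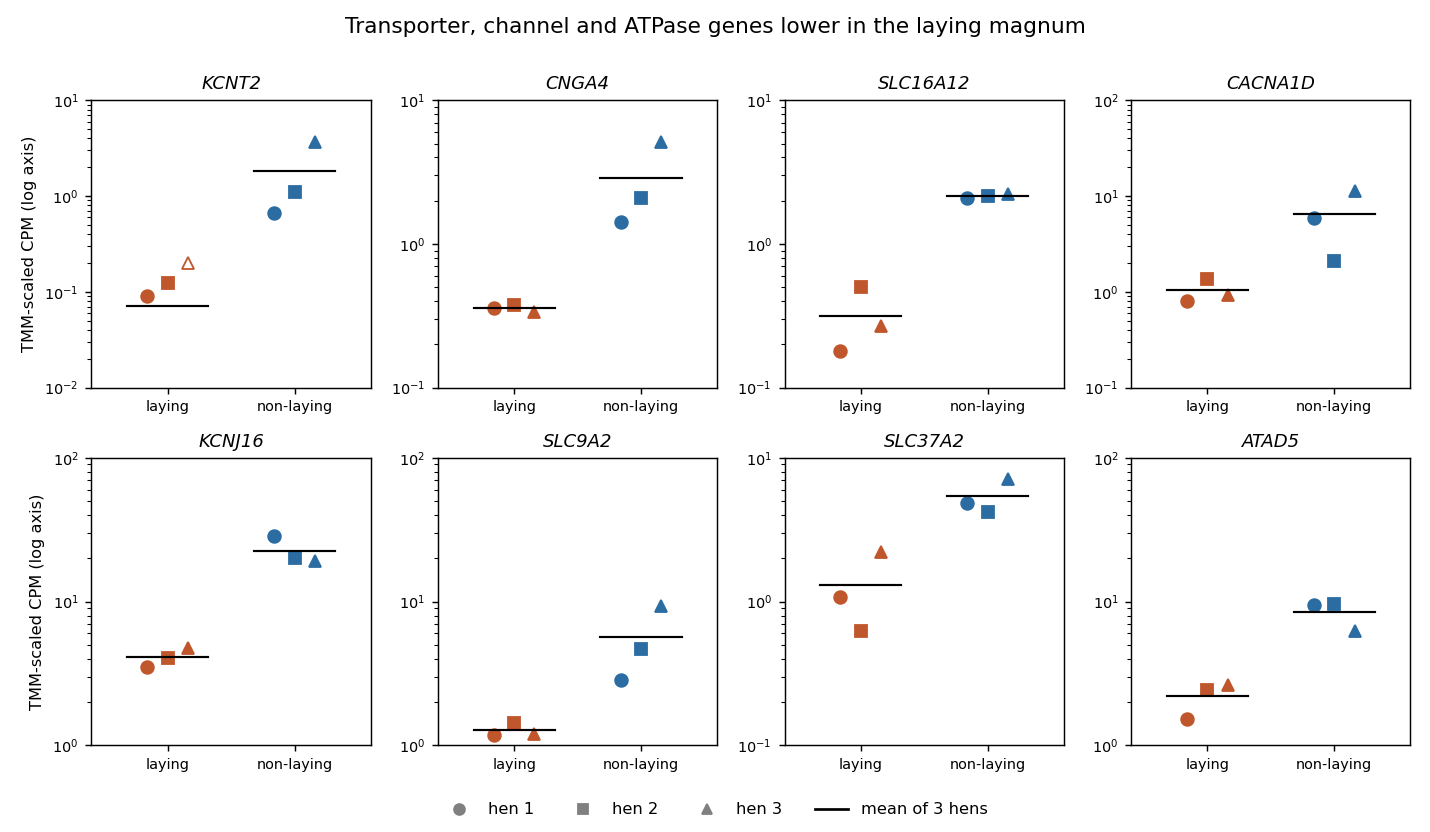
CPM on the TMM-scaled library (log axis) of the 8 genes lower in laying hens, with 1 point per hen, the hen's number as its shape and a line at the mean of 3 hens. An open symbol marks a count of 0, drawn at the 0.2 CPM that 3 counts make. No panel has overlapping groups, and non-laying hen 3 was highest in 6 of the 8.

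The hens of a group were not alike in these genes. Laying hen 3 was at the bottom of its group in 9 of the 10 higher genes, SLC10A4 being the exception, and it was lowest in 38.6% of all genes tested. CA2 and AVD were also lowest in laying hen 3. Of the amino acid transporters left out by the rule, SLC1A4, SLC6A17, SLC7A11 and SLC7A9 were lowest there too, and SLC7A7 was not. Non-laying hen 3 was at the top of its group in 6 of the 8 lower genes, all but KCNJ16 and ATAD5, and it was highest in 42.7% of all genes tested. In that hen the leukocyte marker PTPRC and the ciliated cell marker CCDC39 were highest too, at 34.1 and 33.0 CPM against 12.1 to 14.1 and 18.1 to 22.1 CPM in non-laying hens 1 and 2. In laying hens PTPRC had 3.68 to 5.75 CPM and CCDC39 had 2.96 to 9.69 CPM. The fibroblast markers COL3A1 and LUM together had 254 to 279 CPM in laying and 1030 to 2050 CPM in non-laying hens, highest in non-laying hen 1. KCNJ16 was highest in that hen too, as were 27.3% of all genes tested. On total counts KCNJ16 was highest in non-laying hen 3, at 56.3 against 49.5 CPM in hen 1. The markers named are 1 of 7 leukocyte, 1 of 7 ciliated cell and 2 of 6 fibroblast markers listed, all from the authors' table. The part of these cells in the lower genes was not tested. In the non-laying hens ENSGALG00000012869 was highest in hen 2, then 1, then 3. Of the 10 higher genes SLC17A9, SLC16A5 and SLC22A18 had this order on the TMM scale, and the other 7 did not. On total counts SLC17A9 kept the order. SLC16A5 had 21.7, 21.6 and 14.6 CPM there in non-laying hens 1, 2 and 3. For SLC22A18 these values were 6.34, 5.5 and 7.06 CPM. On the TMM scale the lower gene ATAD5 and the 4 paired markers of dividing cells also had the order of hens 2, 1 and 3. The share of all genes with this order was not computed. In the laying hens ENSGALG00000012869 was highest in hen 1, then 3, then 2 on the TMM scale, an order that no higher member had. By its share of the library, 51.5%, 49.4% and 53.6% in laying hens 1, 2 and 3, the order was hen 3, then 1, then 2. SLC10A4 had that order.

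Levels of different genes were compared per kilobase, by the deposited RPKM within a group. In laying hens SLC25A4 was highest at 89.0 ± 25.1 RPKM (SD, n = 3). SLC17A9 (31.0 ± 8.76 RPKM), SLC16A5 (30.9 ± 18 RPKM) and ATP2A3 (22.0 ± 8.68 RPKM) followed, each within an SD of its neighbour (SD, n = 3). SLCO2A1 came next at 12.9 ± 4.44 RPKM (SD, n = 3), and below it SLC22A18 (4.39 RPKM), SLC22A3 (4.30 RPKM), SLC51B (2.02 RPKM), KCNJ16 (1.79 RPKM) and SLC10A4 (1.44 RPKM) were again each within an SD of the next. SLC26A4 was a gene of low level even in laying hens, at 0.945 ± 0.0658 RPKM (SD, n = 3). The 7 lowest genes, from SLC37A2 (0.475 RPKM) to KCNT2 (0.0116 RPKM), were all members that were lower in laying hens. In non-laying hens KCNJ16 was first at 33.5 ± 13.2 RPKM (SD, n = 3), which was within its SD of SLC25A4 (25.8 ± 7.0 RPKM), and SLC51B was last at 0.155 ± 0.110 RPKM (SD, n = 3), within its SD of SLC26A4 (0.225 RPKM). The place of SLC51B among laying hens rested on hen 2, with 4.77 RPKM against 0.739 and 0.534 RPKM in laying hens 1 and 3. KCNJ16 thus stood first of 18 in non-laying and ninth in laying hens. RPKM is relative to all counts, so it also carries the share that the most abundant gene takes.

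**Figure D3:**
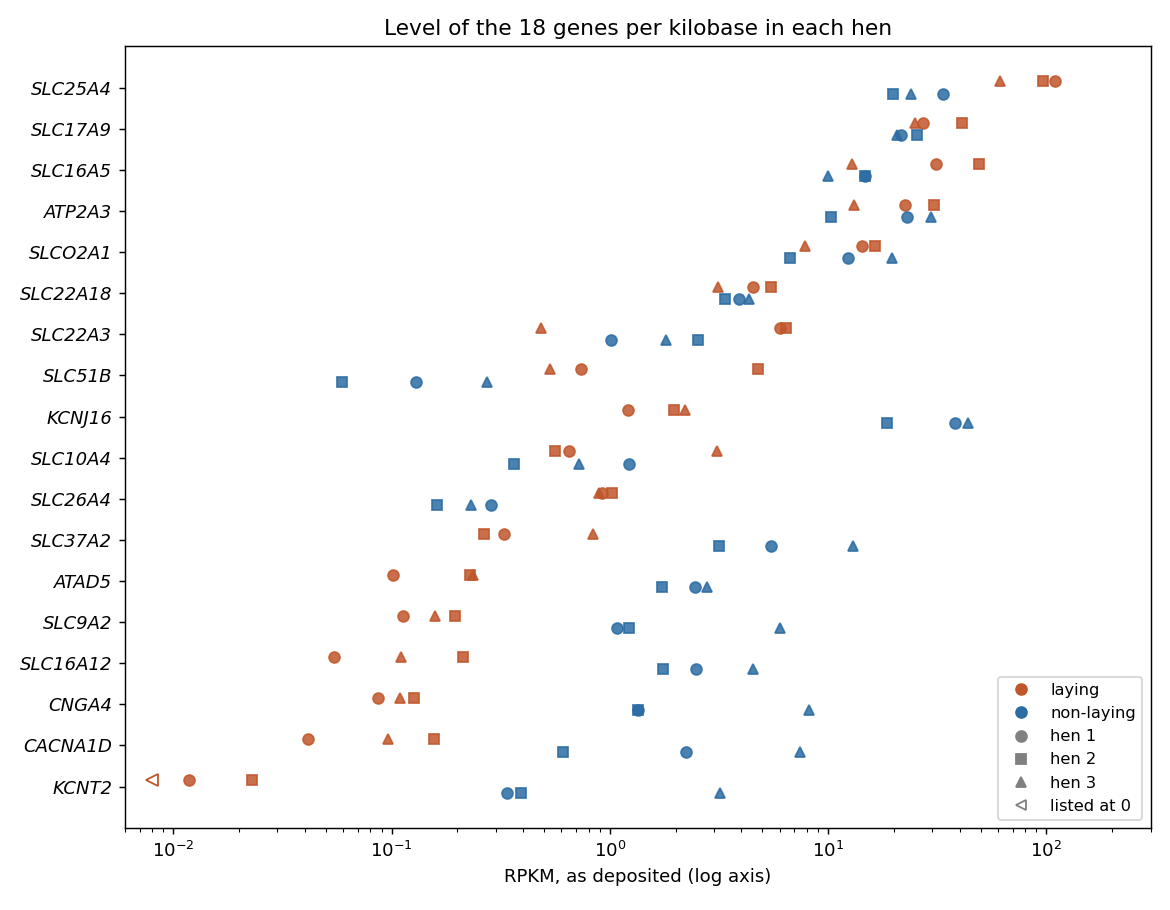
RPKM as deposited (log axis) of the 18 genes in each hen, ordered by the mean of laying hens, with colour for the group and shape for the hen. SLC25A4 leads in laying hens at 61.0 to 109 RPKM, KCNJ16 at 18.6 to 43.6 RPKM is the lower gene with the highest level in non-laying hens, and SLCO2A1, with 12.9 RPKM as the mean of either group, shows no gap between them.

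Library scaling moved the fold changes of higher and lower genes alike, and it changed which of the higher genes had groups that overlapped. On the TMM scale the groups did not overlap in 9 of the 10 higher genes and in all 8 lower genes, against 15.1% and 17.6% of all genes tested in these directions, and the members were chosen for such a difference. On total counts 3 of the 10 higher genes, SLC51B, SLC26A4 and SLC25A4, had laying hens that all exceeded the non-laying ones, as had 0.464% of all genes tested. All 8 lower genes were below the non-laying range in each laying hen there, but so were 83.0% of all genes tested. Total counts put the median log2 fold change of all genes at -1.8. This shift moves all genes nearly alike, so where a member lies relative to it follows from its TMM value. In absolute terms the 10 higher genes had log2 fold changes from -0.0044 (SLCO2A1) to 3.7 (SLC51B) on total counts, and the 8 lower genes from -6.63 (KCNT2) to -3.61 (ATAD5). Of the higher genes, SLC25A4, SLC26A4 and SLC51B were called on total counts too, at 1.76, 2.07 and 3.7 on the log2 scale. The higher genes ATP2A3, SLC10A4, SLC16A5, SLC17A9, SLC22A3, SLC22A18 and SLCO2A1 were not. All 8 lower genes were called there, but 7896 of the 12499 genes tested were called on total counts in either direction.

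**Figure D4:**
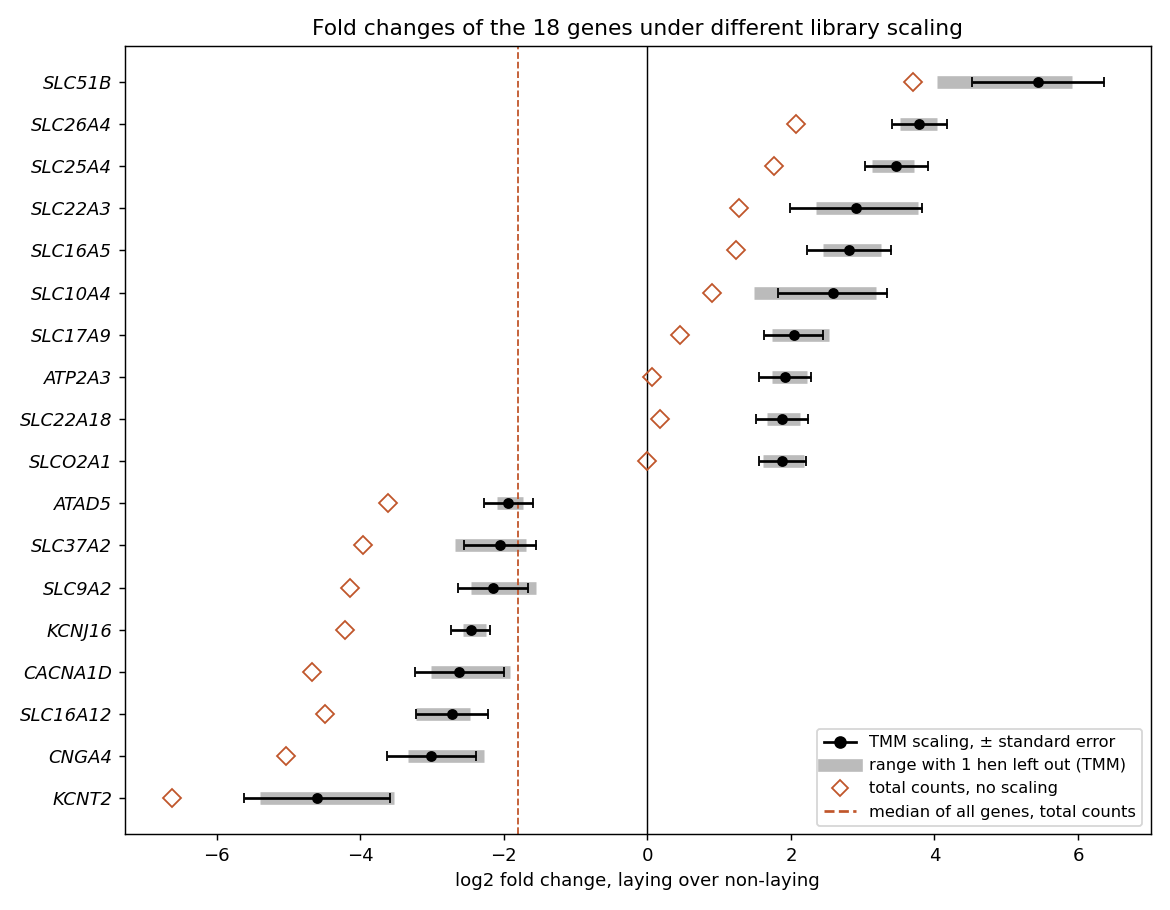
Log2 fold change of the 18 genes, laying over non-laying hens. Black points are the TMM-scaled fit with its standard error, grey bars the range with 1 hen left out, and open orange diamonds the fit on total counts, whose median over all genes (-1.8) is the dashed line. Every diamond lies left of its black point, and those of SLCO2A1, ATP2A3 and SLC22A18 lie near 0.

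Among the rest of the authors' table, 142 of 522 genes (27.2%) had a higher CPM in laying hens, against 10 of the 18 members (55.6%). That rest includes the genes of mitosis that lead the paper's list of lower genes, such as PLK1 and BUB1. The contrast therefore depends on what the rest holds as well as on the members. The median exon length was 1843 bp for the members and 2147 bp for the others. The members lay on 13 chromosomes, with the closest pair, ATAD5 and KCNJ16 on chromosome 18, 1.53 Mb apart. The 5 amino acid transporters left out by the rule all had a higher mean in laying hens. Among those tested, the means ran from 38.2 against 7.02 CPM for SLC7A7 to 12.8 against 0.163 CPM for SLC7A9. SLC6A17 did not pass the count filter and was not tested. It had 12, 57 and 1 counts in the laying group and 0 in each non-laying library. Its 0.0668 CPM in laying hen 3 lies within what a count of 0 allows in the non-laying libraries (0.0542 to 0.101 CPM). Of 208 genes listed for the pathways of these carriers, from water channels to sodium pumps, 17 could be paired with an identifier, 16 of them members and the other CA2, so the rest of these pathways was not analysed here.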

How the data were processed

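Magnum mRNA of 3 laying and 3 non-laying hens was sequenced from stranded libraries, with groups taken from the GEO titles. Reads were cleaned (Prinseq) and mapped in Array Studio to Galgal 5.0 by the authors, with genes of Ensembl release 94. The counting method, and whether it used strand, is not given in the sources used here. The deposited estimated counts are not normalized, and between 5.98% and 8.84% of a library's values were fractions. The deposited RPKM values are relative to exon length and to total counts. For 16 of the 18 genes they lay within 5% of the value computed from counts and exon length, and for CACNA1D and SLC37A2 they did not. The authors' table of 540 genes also holds fold changes, p-values and group means of their own comparison, made with DESeq2, which were not used beyond membership.

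Counts were rounded, filtered with filterByExpr (12499 genes left) and scaled by TMM. The main test was two-sided, with edgeR 4.0.16 (glmQLFit, then glmQLFTest, in R 4.3.3) and no covariates, at the study's thresholds of 3-fold and 0.05 for the Benjamini-Hochberg adjusted p. Standard errors are the log2 fold change divided by the square root of F. The fit was tested on simulated data in which all hens shared a mean profile apart from the changed genes. That does not test the scaling of libraries whose most abundant gene differs as it does here. The members and gene lists were chosen with earlier results of these data known. Names come from the study's supplementary gene list or the deposited table, and every member and every listed gene paired with an identifier was named. NIPAL4 and CHRNA7 were added after their values were seen. A count over whole transporter and channel families could not be made, since identifiers outside the authors' table are not paired with names here. The alternatives were DESeq2's size factors, total counts, TMM without the 20 most abundant genes, all genes with at least 1 count, a mean of at least 10 counts, DESeq2 1.42.0, limma 3.58.1 on log2(RPKM + 1) and log2(RPKM + 0.1), each hen left out, and replicate number as a block. Intervals and floors cover counting error only. To look for a library deposited under more than 1 label, hens of a group were compared with sampling noise. No pair was alike within it (median chi-square of 6.29 to 151 per gene with 1 degree of freedom), so each library was counted once. This says nothing of the groups.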

Additional observations from a re-analysis of the deposited data

How the results depend on the processing

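The 18 genes gave 16 calls, and 623 genes were called in all. DESeq2 called 1005 of 16407 genes and all 18 members. Of 12499 genes, limma on log2(RPKM + 1) called 3845, with 6 members among them. Limma on log2(RPKM + 0.1) called 7040 of 12499 genes and 11 of the 18 members. Total counts without scaling called 7896 of 12499 genes and 11 of the 18 members. With these last settings members were called about as often as genes in general. With a replicate block 397 of 12499 genes and 12 members were called. Replicate numbers are not given as pairing hens, and the deviations of same-numbered hens from their group means correlated at 0.164, -0.064 and 0.020, so the block was not used. With each hen left out in turn the count ranged from 16 to 639 over all genes and from 1 to 14 over the members, lowest without laying hen 1 or 2. The cause of these differences was not tested.

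Over 270 fold changes of members under the alternatives, 214 moved by less than 1 SD between hens, 55 moved further and 1 changed sign, SLCO2A1 on total counts at -0.0044. Of the 55, 50 came from total counts and limma on RPKM, which carry the shift of all genes. DESeq2's size factors, TMM without the most abundant genes, both filters, DESeq2 and the block moved none beyond it. The depth limits KCNT2, SLC16A12, CNGA4 and SLC51B most, with under 10 counts in every hen of their lower group. The count over transporter and channel families was not run under any setting.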

Other observations

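Further transport genes of the authors' table fall outside the naming rule and were picked after their values were seen. NIPAL4, of a family of magnesium transporters, had 76, 84 and 23 counts in the laying group (hens 1, 2 and 3) against 4, 9 and 3 counts in the non-laying group. Its fitted log2 fold change was 4.95, and laying hen 3 was the lowest laying hen, as in 9 of the 10 higher members. CHRNA7, a subunit of nicotinic acetylcholine receptor channels, had 9.32, 17.7 and 14.5 CPM in the laying group against 1.07, 4.58 and 1.93 CPM in the non-laying group. Its log2 fold change was 2.47, and here laying hen 1 was the lowest laying hen. The authors' table selected both genes on their difference in these libraries, so the values are a description.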
